A study of Mus musculus with 8 samples.

Results

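Kdm6b-null gonads were set against wild type gonads over both sexes, 4 libraries against 4, which are all 8 libraries of the study. The libraries were chosen by the genotype in their labels and fall into 4 groups of 2: XX and XY mouse gonads, each wild type or Kdm6b-null. All were taken at embryonic day 11.5 without treatment, and 2 pairs of gonads went into each library. The sources used here do not state the kind of null allele, the strain or the litters, so p-values rest on these pools alone. Polyadenylated RNA was sequenced and the authors deposited normalized counts per gene in 1 table for XX and 1 for XY. Every difference between null and wild type was taken within a table, since each table had its own scaling. The average effect is the genotype term of 1 limma fit with the table as a block. The residual spread of that fit holds both the differences between pools of a group and any disagreement between the XX and XY effects. The average effect was tested for the 16567 of 48440 genes whose mean was at least 10 normalized counts in both tables.

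Kdm6b encodes a histone demethylase that takes methyl groups off lysine 27 of histone H3, a mark that Polycomb proteins place on silent developmental genes. The Hox clusters, which pattern the body axis, are textbook examples of genes held silent by that mark. At this stage the gonad of either sex is a ridge of bipotential somatic cells, germ cells, vessels and interstitial cells. In XY embryos the Y-linked gene Sry then switches on Sox9 and the testis pathway, while Wnt4 and Rspo1 lead towards the ovary.

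The libraries held 19107103 to 19828638 counts on genes, and a value of 0 allowed up to 3 counts, worth 2.91 to 3.09 normalized counts, a limit for counting error only. The cell types in the labels are pre-granulosa (XX) and pre-Sertoli (XY), supporting cells of the ovary and testis. Genes of other cells were present in every library: the summed level was 2581 to 5306 normalized counts for germ cells, 13940 to 23878 for endothelium, 2549 to 3846 for macrophages and 62687 to 254110 for erythroid cells. Mesonephros and duct genes summed to 4561 to 6401 and adrenal cortex and steroidogenesis genes to 1604 to 3914 normalized counts. The values are therefore those of mixed tissue and not of 1 cell type. How much came from tissue next to the gonad was not tested. Sry was at 0 in every XX library, whereas it measured 57.4 and 73.8 normalized counts in XY wild type against 19.5 and 6.18 in XY null libraries, and it could not be tested across both sexes. Uty, a Y-linked relative of Kdm6b, measured 725 to 813 normalized counts in the XY libraries and at most 0.970 in the XX libraries. XX wild type replicate 1 stood apart from the rest. Its summed level of liver and yolk sac proteins was 15268 normalized counts, against 555 in XX wild type replicate 2 and between 44.3 and 251 in the remaining 6. The correlation of log2 values between replicates was 0.969 in XX wild type and 0.981 to 0.986 in the other groups.

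Kdm6b itself fell in the null libraries of both sexes. It lies on chromosome 11 (chr11:69398508-69413675, minus strand, GRCm38). Kdm6b measured 2218 and 2796 normalized counts in XX wild type against 1249 and 1125 in XX null libraries, and 3399 and 3181 in XY wild type against 1238 and 1037 in XY null libraries. In each sex both null libraries lay below both wild type libraries. The average log2 fold change was -1.30 ± 0.12 (SE) with a Benjamini-Hochberg adjusted p of 0.0202 in limma, -1.07 in XX and -1.54 in XY. Kdm6b RNA in the null was 47.4% of wild type in XX and 34.6% in XY, and gene-level counts do not show which exons these reads come from.

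Kdm6bos, an antisense transcript inside the Kdm6b gene (chr11:69401513-69402700, plus strand), was the other gene that fell. Wild type libraries held 24.3 and 19.2 normalized counts in XX and 27.7 and 25.9 in XY, and Kdm6bos was at 0 in all 4 null libraries. Against the limit of 3 counts per library it was at least 7.17-fold lower in XX and at least 8.68-fold lower in XY, with an adjusted p of 0.00269 in limma. The sources used here do not state the counting strand, so reads of Kdm6b and of its antisense partner cannot be told apart. Both calls depended on single libraries, while the log2 fold change of Kdm6b stayed between -1.42 and -1.21. Neither gene passed without XY wild type replicate 1 (adjusted p in limma 0.121 for Kdm6b and 0.0560 for Kdm6bos) or replicate 2 (0.101 and 0.0593), and Kdm6b did not pass without XX wild type replicate 2 (0.0762), XX null replicate 2 (0.0726), XY null replicate 1 (0.141) or XY null replicate 2 (0.0615). With no variance trend in limma Kdm6b did not pass either (0.104). With same-numbered libraries of a sex as a block neither gene passed (adjusted p in limma 0.0711 for Kdm6b and 0.0611 for Kdm6bos).

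Kdm6b and Kdm6bos were the only genes called for the average effect by limma at an adjusted p under 0.05, 2 of 16567 or 0.0121%. At an unadjusted p under 0.05, 1188 genes (7.17%) were higher and 837 (5.05%) lower in the null. Null libraries lay wholly above the wild type libraries of their own table in both sexes for 1056 genes (6.37%) and wholly below for 824 (4.97%), while 856 genes (5.17%) were separated in opposite directions in XX and XY. These counts moved with single libraries. Without XX null replicate 1 there were 490 higher and 514 lower genes, and without XX null replicate 2 there were 607 higher. Without XX wild type replicate 1, the library that stood apart, limma called 3 genes and there were 959 higher and 778 lower genes.

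The 2 sexes were then fitted alone, since they share no library. In XX 2335 genes (14.1%) and in XY 811 genes (4.9%) had an unadjusted p under 0.05, and limma called 0 genes in either at an adjusted p under 0.05. Of the genes that met the unadjusted threshold in both sexes, 163 (0.984% of those tested) had the same sign, 74 higher and 89 lower in the null, and 40 (0.241%) had opposite signs. Changes beyond 0.5 on the log2 scale in both sexes shared their sign in 448 genes (2.7%) and opposed in 249 (1.5%). Across genes, which are not independent replicates, the XX and XY log2 fold changes had a Pearson correlation of 0.173, and 57.0% of genes had the same sign. Without XX wild type replicate 1 the correlation was 0.0622, with 196 genes of the same sign and 84 of opposite sign past the threshold in both sexes. Without XY wild type replicate 1 these were 81 and 76, so that the 2 counts nearly matched.

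**Figure D1:**
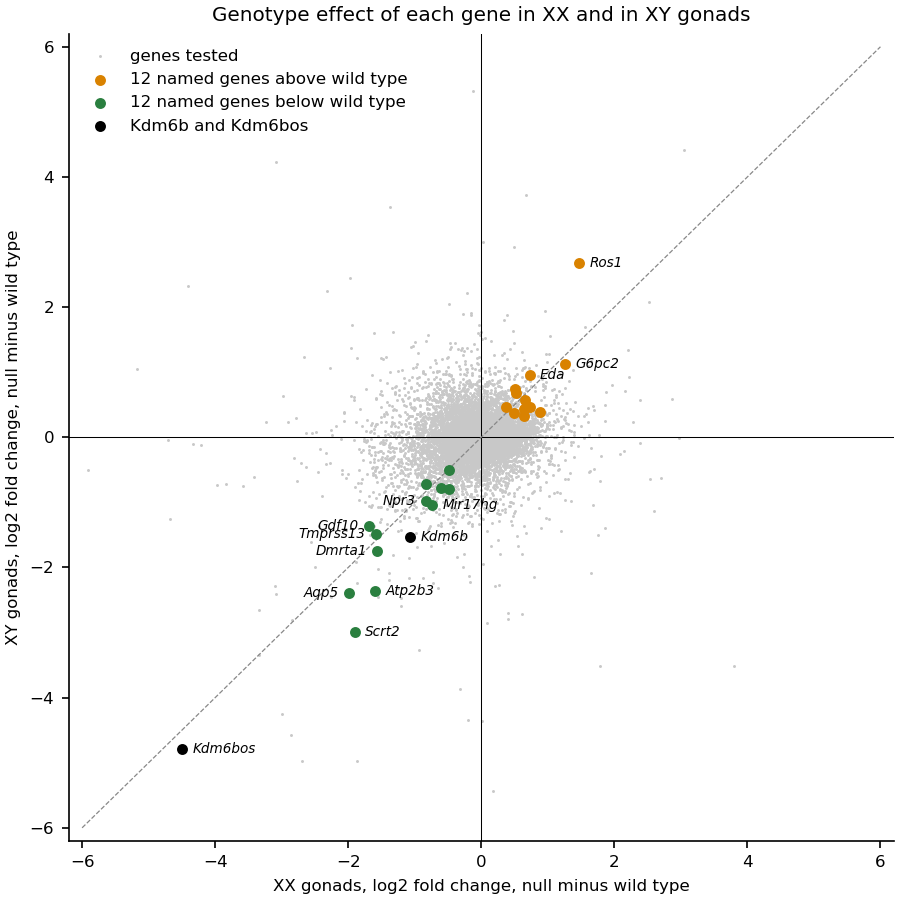
Each point is 1 of the 16567 genes tested, with its log2 fold change (null minus wild type) in XX gonads on the horizontal axis and in XY gonads on the vertical axis; the dashed line marks equal change. Kdm6b and Kdm6bos (black) lie near that line at the lower left, the 12 named genes with null above wild type (orange) at the upper right and the 12 with null below wild type (green) at the lower left.

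The genes named next had null libraries wholly on 1 side of the wild type libraries in both sexes and the smallest p values, passing over predicted genes without a name. None of them was called and their separation was a condition of the choice, so their values are a description. The gene nearest to a call was Scrn1, which encodes secernin, a cytosolic protein linked to exocytosis (chr6:54501173-54566489, minus strand). Scrn1 measured 1001 and 1031 normalized counts in XX wild type against 1435 and 1452 in XX null libraries, and 807 and 822 in XY wild type against 1271 and 1447 in XY null libraries. Replicates lay close together, and in each sex both null libraries lay above both wild type libraries. Its average log2 fold change was 0.62 ± 0.07 (SE), or 1.54-fold, with an adjusted p of 0.0844 in limma.

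Dap, a repressor of autophagy (chr15:31224314-31274341, plus strand), gave 911 and 902 normalized counts in XX wild type against 1375 and 1489 in XX null libraries, and 787 and 980 in XY wild type against 1260 and 1364 in XY null libraries. Its groups did not overlap, at an average log2 fold change of 0.62 ± 0.08 (SE) and an adjusted p of 0.0994 in limma. Eda encodes ectodysplasin, a ligand of the tumour necrosis factor family that shapes hair and teeth. Eda measured 133 and 155 normalized counts in XX wild type against 232 and 244 in XX null libraries, and 129 and 162 in XY wild type against 268 and 296 in XY null libraries, an average of 1.80-fold (log2 0.85 ± 0.12 SE, adjusted p 0.111 in limma). Like Scrn1, Eda was separated by genotype in each sex, as the choice required.

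G6pc2, a glucose-6-phosphatase subunit best known from pancreatic islets (chr2:69211073-69227841, plus strand), measured 181 and 127 normalized counts in XX wild type against 398 and 334 in XX null libraries, and 186 and 155 in XY wild type against 298 and 463 in XY null libraries. The log2 fold changes were close in the 2 sexes, 1.26 in XX and 1.13 in XY, for an average of 2.29-fold (adjusted p 0.111 in limma). Ros1, a receptor tyrosine kinase, had the largest difference among the 12 higher genes. Ros1 measured 45.6 and 46.5 normalized counts in XX wild type against 171 and 97.0 in XX null libraries, and 17.8 and 35.9 in XY wild type against 159 and 175 in XY null libraries. That is 4.19-fold on average (log2 2.07 ± 0.32 SE, adjusted p 0.149 in limma), with 1.47 in XX and 2.67 in XY. In mixed tissue a change in RNA per cell and a change in the number of cells of a type cannot be told apart.

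The other 7 higher genes had average log2 fold changes from 0.41 to 0.64 and adjusted p values from 0.151 to 0.216 in limma. They were the muscle filament gene Des (0.64), the brain receptor component Lingo1 (0.60), Hoxa6 (0.60), Hoxa7 (0.54), the adenylate kinase Ak1 (0.48), the pro-apoptotic gene Bmf (0.43) and Stxbp6 (0.41), whose protein binds the vesicle fusion machinery. Des was 767 and 758 normalized counts in XX wild type against 1479 and 1326 in XX null libraries, and 965 and 893 in XY wild type against 1219 and 1224 in XY null libraries. Its XX difference (0.88) was the larger, against 0.40 in XY, and the difference between them did not pass (adjusted p 0.569 in limma).

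Among the 12 lower genes Ccnd1 was the most abundant that codes for a protein. It encodes cyclin D1, which drives entry into the cell cycle (chr7:144929931-144939925, minus strand). Ccnd1 measured 3065 and 2977 normalized counts in XX wild type against 2114 and 2199 in XX null libraries, and 2784 and 2781 in XY wild type against 1828 and 2124 in XY null libraries. In each sex both null libraries lay below both wild type libraries, and the change was nearly equal in XX (-0.49) and XY (-0.50). The average was -0.49 ± 0.06 (SE) on the log2 scale, 0.711 of wild type, with an adjusted p of 0.0994 in limma. The 15 replication and mitosis genes tested held 0 genes at an unadjusted p under 0.05, beside 12.2% in either direction over all genes. Their median average log2 fold change was 0.01.

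Mir17hg, the primary transcript of a microRNA cluster, lies on chromosome 14 (chr14:115042879-115046727, plus strand) and holds 6 microRNA hairpins in RefSeq. Mir17hg measured 721 and 1048 normalized counts in XX wild type against 483 and 565 in XX null libraries, and 767 and 713 in XY wild type against 368 and 348 in XY null libraries. In each sex both null libraries lay below both wild type libraries, and the difference was -0.73 in XX and -1.05 in XY. The average log2 fold change was -0.89 ± 0.13 (SE), with an adjusted p of 0.111 in limma. Without XX wild type replicate 1 it was -1.03 with an adjusted p of 0.00779, and Mir17hg was then called. The mature microRNAs of this cluster, which restrain their targets through base pairing of the seed, are shown by shared seed because they are what the transcript is processed into. They were not measured in these libraries. Sequences are from RefSeq (GRCm38.p6), written 5′ to 3′, with the seed (bases 2 to 8) in capitals. The first pair shares 1 seed and so does the second pair, whereas miR-18a-5p and miR-92a-3p have seeds of their own.
mmu-miR-17-5p: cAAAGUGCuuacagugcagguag
mmu-miR-20a-5p: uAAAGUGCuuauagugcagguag
mmu-miR-19a-3p: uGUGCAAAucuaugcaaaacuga
mmu-miR-19b-3p: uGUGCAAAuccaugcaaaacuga
mmu-miR-18a-5p: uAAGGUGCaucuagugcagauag
mmu-miR-92a-3p: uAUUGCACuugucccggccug

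Several of the lower genes were weakly expressed, and their fold changes were the largest. Scrt2, a zinc finger repressor of neurons, measured 61.1 and 42.5 normalized counts in XX wild type against 14.9 and 11.1 in XX null libraries, and 120 and 107 in XY wild type against 21.5 and 8.23 in XY null libraries. Its average log2 fold change was -2.44 ± 0.35 (SE), with an adjusted p of 0.111 in limma. Aqp5, a water channel of secretory epithelia, measured 33.96 and 26.3 normalized counts in XX wild type against 3.99 and 11.1 in XX null libraries, and 58.4 and 71.8 in XY wild type against 11.7 and 11.3 in XY null libraries. In both genes and each sex the higher null value lay below the lower wild type value. The average log2 fold change of Aqp5 was -2.19 ± 0.31 (SE; adjusted p 0.111 in limma).

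Tmprss13, a membrane serine protease, measured 32.0 and 32.4 normalized counts in XX wild type against 9.96 and 10.1 in XX null libraries, and 58.4 and 77.8 in XY wild type against 22.4 and 24.7 in XY null libraries. The null values were close to 0.345 of wild type in both sexes (log2 -1.59 in XX and -1.48 in XY, adjusted p of the average 0.0994 in limma). Dmrta1, a relative of the testis gene Dmrt1, measured 22.3 and 17.2 normalized counts in XX wild type against 6.98 and 5.05 in XX null libraries, and 68.3 and 46.9 in XY wild type against 19.5 and 13.4 in XY null libraries. Gdf10, a secreted ligand of the transforming growth factor beta family, measured 498 and 269 normalized counts in XX wild type against 111 and 114 in XX null libraries, and 144 and 174 in XY wild type against 43.9 and 84.4 in XY null libraries. The groups of all 3 genes were separated in each sex, with average log2 fold changes of -1.66 for Dmrta1 (adjusted p 0.149 in limma) and -1.53 for Gdf10 (0.151).

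The calcium pump gene Atp2b3 had an average log2 fold change of -1.98, the natriuretic peptide clearance receptor Npr3 -0.91, the small nucleolar RNA host Snhg4 -0.77, the ribosomal RNA repeat Rn18s-rs5 -0.69 and the steroid-metabolizing cytochrome Cyp1b1 -0.64. Their adjusted p values in limma ran from 0.124 to 0.186. Cyp1b1 measured 1311 and 1139 normalized counts in XX wild type against 806 and 951 in XX null libraries, and 1585 and 1669 in XY wild type against 859 and 1012 in XY null libraries.

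**Figure D2:**
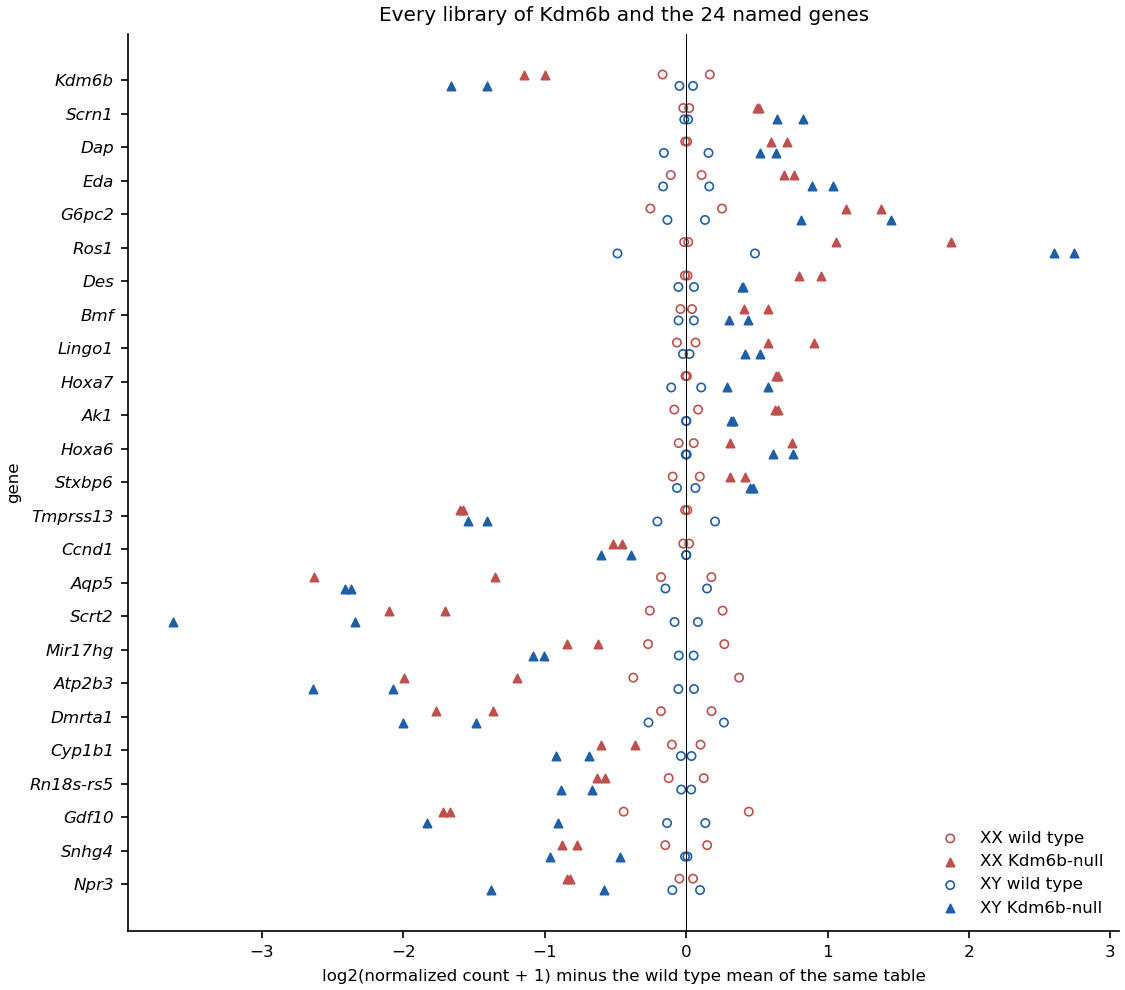
Every library of Kdm6b and the 24 named genes, as log2(normalized count + 1) minus the wild type mean of the same table; open circles are wild type and filled triangles Kdm6b-null libraries, XX in red and XY in blue. The 24 genes were chosen so that no triangle falls among the circles of its own sex, and the same holds for Kdm6b. Ros1 lies highest above and Scrt2 lowest below its wild type.

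The authors' deposited tables gave another view of the same libraries, with 407 genes at an adjusted p under 0.05 in XX and 72 in XY. The authors' deposited tables shared 14 genes, of which 11 had the same sign, which is 2.703% of the XX list and 15.3% of the XY list. In the authors' deposited tables these 11 were G6pc2, Scrn1 and Ros1 with a positive sign and Kdm6b, Ccnd1, Rn18s-rs5, Ifitm1, Cacna1g, Serpinb6a and the predicted genes Gm2044 and Gm15920 with a negative sign. The other 3, Glo1, Dnah8 and Rps18, had opposite signs in XX and XY. In the fit made here Ifitm1, which encodes an interferon-induced membrane protein, measured 1140 and 586 normalized counts in XX wild type against 479 and 283 in XX null libraries, and 906 and 1105 in XY wild type against 513 and 594 in XY null libraries (average log2 -1.002, adjusted p 0.256 in limma). Its groups did not overlap within a sex. The calcium channel gene Cacna1g had an average log2 fold change of -0.90 and the protease inhibitor gene Serpinb6a of -0.68, with adjusted p values of 0.246 and 0.233 in limma.

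Gm15920 and Gm15772, a pair of processed pseudogenes on chromosome 5, followed the genotype in 7 libraries but not in the eighth. Gm15772 measured 4358 and 115 normalized counts in XX wild type against 99.6 and 95.0 in XX null libraries, and 2886 and 2936 in XY wild type against 88.8 and 166 in XY null libraries. Gm15920 measured 125 and 6.07 normalized counts in XX wild type against 0.996 and 6.06 in XX null libraries, and 86.1 and 98.7 in XY wild type against 2.93 and 5.15 in XY null libraries. In both genes XX wild type replicate 2 was at the level of the null libraries, and without it Gm15772 was among the genes called by limma. These pseudogenes were chosen after their values were seen, and reads of their parent genes could be assigned to them.

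Hox genes lay mostly above wild type in the null libraries of both sexes. Of 39 Hox genes listed, 36 passed the filter, 17 of these were higher at an unadjusted p under 0.05 and 0 were lower, against 7.17% higher and 5.05% lower over all genes tested. None passed the adjusted threshold in limma. The median of their average log2 fold changes was 0.32, with 0.21 in XX and 0.41 in XY, beside 0.01 over all genes, and 31 of 36 were positive. In 11 of them the null libraries lay wholly above wild type in both sexes (background 6.37%). Without XX wild type replicate 1 there were again 17 higher and 0 lower, and leaving out XX null replicate 1 gave the smallest count, 10 higher. The list was used with higher Hox levels in these data already known, and neighbours within a cluster are not independent, so these counts are a description.

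Hoxc9, which patterns the trunk, measured 276 and 268 normalized counts in XX wild type against 666 and 560 in XX null libraries, and 428 and 398 in XY wild type against 581 and 545 in XY null libraries. It had the largest difference of the Hox genes whose groups were separated in both sexes, with an average log2 fold change of 0.80 ± 0.15 (SE; adjusted p 0.216 in limma). Hoxa7 measured 481 and 485 normalized counts in XX wild type against 757 and 750 in XX null libraries, and 562 and 651 in XY wild type against 738 and 903 in XY null libraries. Hoxa6, its neighbour, measured 298 and 321 in XX wild type against 519 and 383 in XX null libraries, and 315 and 313 in XY wild type against 480 and 529 normalized counts in XY null libraries. In all 3 genes each null library exceeded the wild type libraries of its own sex. Hoxd3 (0.60) and Hoxc4 (0.45) were separated in the same way, with adjusted p values of 0.232 and 0.233 in limma.

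All 4 clusters held such genes. Of the tested genes, 4 of 11 in Hoxa, 3 of 9 in Hoxb, 5 of 7 in Hoxc and 5 of 9 in Hoxd were higher at an unadjusted p under 0.05. By position, chosen after the values were seen, 17 of the 30 genes with paralog number 1 to 10 and 0 of the 6 with number 11 to 13 were higher. The summed level of those 6 posterior genes differed widely between replicates in 3 of the 4 groups. It was 1292 and 1325 normalized counts in XX wild type against 1697 and 600.1 in XX null libraries, and 1839 and 216 in XY wild type against 2183 and 293 in XY null libraries. The summed level of paralogs 1 to 10 was 14937 and 16043 in XX wild type against 21589 and 19570 in XX null libraries, and 16691 and 15651 in XY wild type against 21016 and 21277 normalized counts in XY null libraries. Those sums did not overlap between the genotypes of a sex.

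**Figure D3:**
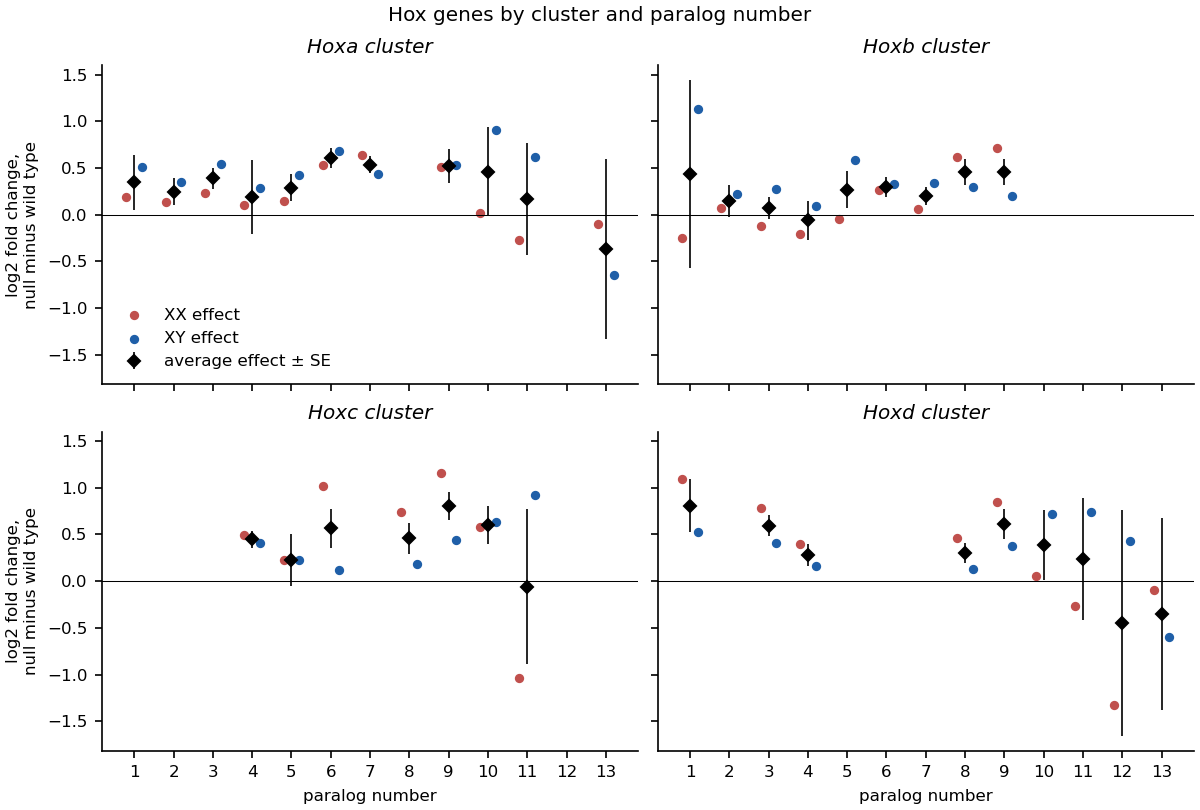
Log2 fold change (null minus wild type) of the 36 tested Hox genes by cluster and paralog number; black diamonds with bars are the average effect ± SE, red points the XX and blue points the XY effect. Most points with paralog number 1 to 10 lie above 0, and the error bars are widest at 11 to 13 and at Hoxb1.

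The machinery that writes, reads and erases the mark was examined next. Of 23 genes for H3K27 demethylases and Polycomb and trithorax proteins tested, 3 were higher (the Polycomb genes Phc2, 0.32, and Phc1, 0.22, and the methyltransferase Kmt2d, 0.20) and 1 was lower (Bmi1, -0.26) at an unadjusted p under 0.05, with a median of -0.01. That is 13.04% higher and 4.35% lower, beside 7.17% and 5.05% over all genes. Kdm6a, the X-linked relative of Kdm6b, measured 1806 and 2133 normalized counts in XX wild type against 2075 and 1926 in XX null libraries, and 1342 and 1429 in XY wild type against 1351 and 1289 in XY null libraries. Its genotypes overlapped in both sexes and its average log2 fold change was -0.02 ± 0.07 (SE; adjusted p 0.923 in limma).

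Early gonad factors and regulators of Sry had 4 of 19 genes higher (21.1%, beside 7.17% over all genes) and 0 lower (beside 5.05%) at an unadjusted p under 0.05, with a median of 0.11 (0.24 in XX and -0.03 in XY). They included the gonad cofactor Cited2 (0.34) and the kinases Map3k4 (0.31) and Map2k6 (0.32), which act upstream of Sry. Map3k4 measured 1426 and 1647 normalized counts in XX wild type against 2238 and 2328 in XX null libraries, and 2043 and 2000 in XY wild type against 2026 and 2176 in XY null libraries. The separation was in XX, and the XY groups overlapped.

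In the testis pathway 0 of 16 tested genes were higher and 2 lower (12.5%) at an unadjusted p under 0.05, beside 7.17% higher and 5.05% lower over all genes. The median average log2 fold change was -0.23, with 0.06 in XX and -0.22 in XY. Inha, a subunit of the hormone inhibin, measured 318 and 266 normalized counts in XX wild type against 245 and 214 in XX null libraries, and 298 and 336 in XY wild type against 204 and 215 in XY null libraries. It was the testis gene with separated groups in both sexes (average log2 -0.47 ± 0.11 SE, adjusted p 0.273 in limma). Dmrt1 was the other lower gene, with -0.73 on average, -0.27 in XX and -1.20 in XY. Sox9, which commits cells to the Sertoli fate, measured 515 and 769 normalized counts in XX wild type against 923 and 828 in XX null libraries, and 910 and 767 in XY wild type against 1021 and 495 in XY null libraries. Its groups overlapped in XY, and the average log2 fold change was 0.12 ± 0.25 (SE; adjusted p 0.867 in limma).

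The ovary pathway had 0 of 15 genes higher and 1 lower (6.67%, beside 5.05% over all genes) at an unadjusted p under 0.05, with a median of -0.24 (-0.16 in XX and -0.33 in XY). The lower gene was Irx3, a homeobox factor, at 220 and 211 normalized counts in XX wild type against 119 and 51.5 in XX null libraries, and 157 and 101 in XY wild type against 97.5 and 95.7 in XY null libraries (average log2 -0.91 ± 0.31 SE, adjusted p 0.362 in limma). Wnt4, the early ovary signal, measured 1411 and 1110 in XX wild type against 1430 and 1875 in XX null libraries, and 2217 and 2523 in XY wild type against 1425 and 3089 normalized counts in XY null libraries. Its average log2 fold change was 0.11 ± 0.24 (SE), and that of the activin antagonist Fst was -0.46 ± 0.25 (SE). Neither Wnt4 nor Fst was separated by genotype in both sexes.

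Interstitial progenitor genes split within their list, with 5 of 12 positive and 7 negative, from 0.56 to -0.63, and a median of -0.03. At an unadjusted p under 0.05, 3 were higher (25%, beside 7.17% over all genes) and 0 lower (beside 5.05%). Nr2f1, an orphan nuclear receptor, measured 2368 and 2973 normalized counts in XX wild type against 4485 and 4430 in XX null libraries, and 3237 and 3636 in XY wild type against 4778 and 4084 in XY null libraries. Nr2f2, its paralog and a marker of steroidogenic progenitors, measured 6086 and 6252 in XX wild type against 8356 and 7071 in XX null libraries, and 6698 and 6143 in XY wild type against 9013 and 8127 normalized counts in XY null libraries. Each null library exceeded the wild type libraries of its own sex in both genes, with average log2 fold changes of 0.56 ± 0.11 (SE) and 0.37 ± 0.08 (SE) and adjusted p values of 0.233 and 0.236 in limma.

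Markers of other cell types are read against 7.17% higher and 5.05% lower over all genes. Endothelium had 0 of 13 genes past the unadjusted threshold (median 0.40 in XX and -0.22 in XY), macrophages 1 higher and 1 lower of 12 (-0.27 and 0.39), and erythroid cells 1 lower of 14 (-0.62 and 0.44). Germ cell genes had 2 higher of 16, Kit (0.67) and Lin28a (0.42), which somatic cells also express, with medians of -0.25 in XX and 0.31 in XY. Mesonephros and duct had 1 higher of 11, coelomic epithelium 1 lower of 9, adrenal cortex and steroidogenesis 0 of 8 and neural crest and neurons 0 of 12, the last with 11 negative members. Liver and yolk sac proteins had 2 lower of 5, with a median of -4.67 in XX and -0.05 in XY. Both XX wild type libraries lay above the XX null libraries in that sum (15268 and 555 against 115 and 127), and without XX wild type replicate 1 the median average was -1.18 in place of -2.17. Their part in the gene results above was not tested.

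The state lists are also read against 7.17% higher and 5.05% lower over all genes at an unadjusted p under 0.05. Hypoxia and glycolysis had 3 of 14 genes lower (Ankrd37, Bnip3 and Vegfa, -0.23 to -0.52), or 21.4%, and 0 higher. Immediate early genes had 1 of 11 higher and 3 lower, among them the transcription factor Egr1 (-0.76). Targets of p53 had 2 of 10 lower, imprinted genes 1 of 19 higher (Peg10, 0.71), and the mitochondrial genome 1 of 17 lower. Medians of the average effect lay between -0.16 and 0.11 in these lists. For the mitochondrial genome the median was -0.44 in XX and 0.12 in XY. Its share of the library, a sign of RNA quality, was 3.12 and 2.55% in XX wild type against 1.99 and 2.02% in XX null libraries, and it was 2.22 and 1.90% in XY wild type against 2.09 and 2.15% in XY null libraries. It moved with the genotype in XX, and its part in the XX values was not tested.

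**Figure D4:**
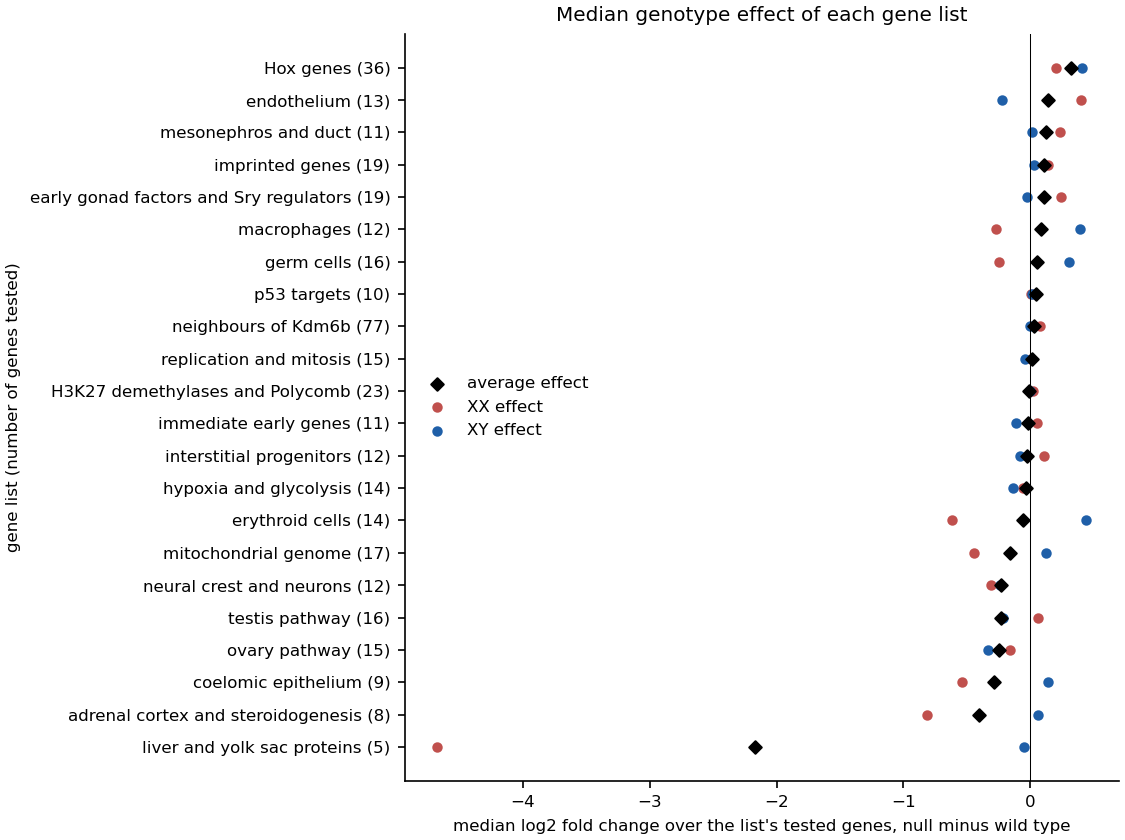
Median log2 fold change (null minus wild type) over the tested genes of each list, as the average effect (black diamonds), in XX (red) and in XY (blue), with the number of genes tested in brackets. Hox genes have the highest average median (0.32), and the liver and yolk sac list spreads from -4.67 in XX to -0.05 in XY.

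Neighbours of Kdm6b were examined because a null allele can carry a chromosome segment of its own strain with it. Of 77 tested genes within 1 Mb, 8 were higher (10.4%) and 3 lower (3.90%) at an unadjusted p under 0.05, beside 7.17% and 5.05% over all genes. Within 10 Mb, Kdm6b and Kdm6bos again left out, the counts were 23 higher (6.91%) and 18 lower (5.41%) of 333. Null libraries lay wholly above wild type in both sexes for 10 of the 77 and 28 of the 333, beside 6.37% over all genes. They lay wholly below for 4 and 15, beside 4.97%. Tnk1, a tyrosine kinase gene in that segment, measured 41.7 and 42.5 normalized counts in XX wild type against 23.9 and 24.3 in XX null libraries, and 49.5 and 47.9 in XY wild type against 32.2 and 33.97 in XY null libraries (average log2 -0.66 ± 0.17 SE, adjusted p 0.318 in limma). The sodium pump subunit Atp1b2 had -0.53 and the Wnt signal transducer Dvl2 0.29, both with separated groups in each sex.

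By gene class, a grouping chosen after the values were seen, the 2 directions were uneven. Of 14379 protein-coding genes tested, 1139 (7.92%) were higher and 652 (4.53%) lower at an unadjusted p under 0.05, whereas of 2142 genes of other classes 48 (2.24%) were higher and 179 (8.36%) lower. With quantile normalization within each table the counts were 1014 and 804 for protein-coding genes and 74 and 125 for the other classes, so the split was less uneven. Genes for small and ribosomal RNAs (small nucleolar and small nuclear RNA, microRNA hairpins and miscellaneous small RNA) had 3 of 95 higher and 19 lower (14 with quantile normalization), beside 7.17% and 5.05% over all genes, and 10 of 56 small nucleolar RNA genes were lower with 0 higher. Rn18s-rs5 (chr17:39846353-39848827, minus strand), a repeat of 18S ribosomal RNA, measured 30394 and 36103 normalized counts in XX wild type against 22291 and 21429 in XX null libraries, and 30285 and 31804 in XY wild type against 19572 and 16821 in XY null libraries. Its share of the library was 0.157 to 0.186% in the 4 wild type and 0.0855 to 0.113% in the 4 null libraries. The small RNA genes together, Rn18s-rs5 included, took 0.197 to 0.229% in wild type and 0.112 to 0.144% in null libraries, so this share, a sign of how RNA was selected, moved with the genotype in both sexes. Its part in the other results was not tested.

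**Figure D5:**
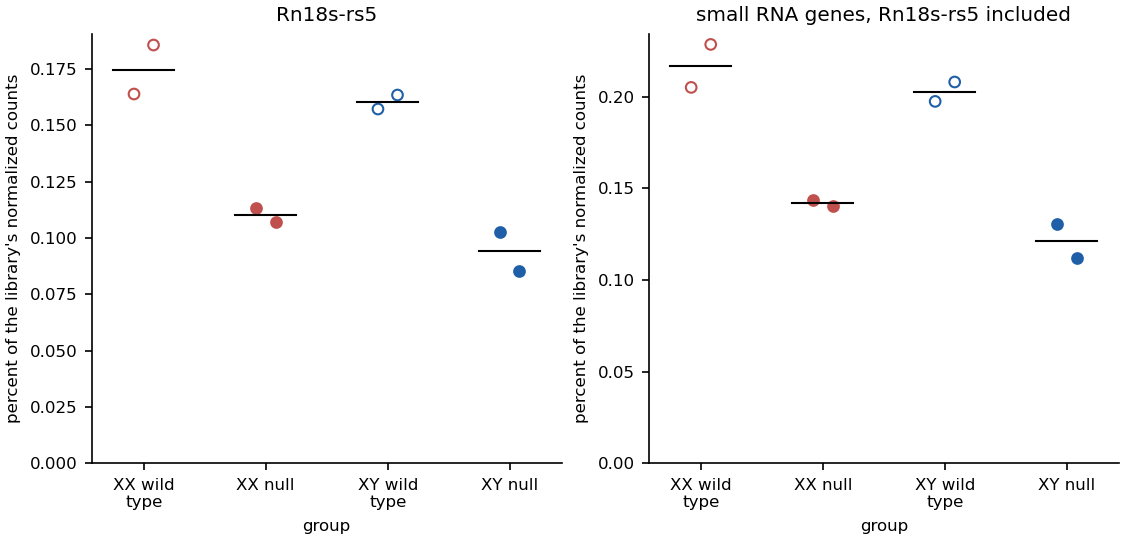
Percent of each library's normalized counts on Rn18s-rs5 (left) and on all tested small RNA genes, Rn18s-rs5 included (right); points are single libraries, open for wild type and filled for null, and lines are group means. All 4 null libraries lie below all 4 wild type libraries in both panels.

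At an unadjusted p under 0.05, 3 of 23 genes annotated as microRNA hairpins were higher (13.04%) and 7 lower (30.43%). Over all genes the shares were 7.17% and 5.05%. The lower ones included the predicted loci Gm24270, Gm23935, Gm24187 and Gm25911, so these shares do not describe named microRNAs alone. Of these, Gm23935 measured 4446 and 4886 normalized counts in XX wild type against 3366 and 3640 in XX null libraries. In XY it was 4448 and 5461 in wild type against 2871 and 2539 in null libraries. The higher ones included Mir322 and Mir503, neighbours on the X chromosome. Mir322 measured 11.6 and 8.09 normalized counts in XX wild type against 23.9 and 20.2 in XX null libraries, and 10.9 and 14.95 in XY wild type against 31.2 and 15.4 in XY null libraries, with an average log2 fold change of 0.92 ± 0.30 (SE; adjusted p 0.352 in limma). Mir503 had 0.85 ± 0.32 (SE; adjusted p 0.375 in limma). Of the lower ones, Mir196a-1 lies inside the Hoxb cluster and had -0.71 ± 0.23 (SE; adjusted p 0.357 in limma), against positive changes of its neighbour Hoxb9 (0.46), and Mir7-1 had -0.68 ± 0.23 (SE; adjusted p 0.358 in limma). Counts over Mir322, Mir503, Mir196a-1 and Mir7-1 were few, and the mature forms were not measured. Their RefSeq sequences (GRCm38.p6) are given with the seed in capitals, to set beside the cluster above, with which they share no seed.
mmu-miR-322-5p: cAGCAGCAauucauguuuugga
mmu-miR-503-5p: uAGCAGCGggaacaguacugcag
mmu-miR-196a-5p: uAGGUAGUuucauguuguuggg
mmu-miR-7a-5p: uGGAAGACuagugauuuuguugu

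Whether the genotype effect differed between the sexes was tested as the difference of the XY and XX effects. Limma called 0 of 16567 genes at an adjusted p under 0.05 (smallest adjusted p 0.224), and 1407 (8.49%) had an unadjusted p under 0.05. Kdm6b had a difference of -0.47 ± 0.19 (SE; adjusted p 0.583 in limma). Ros1 had a difference of 1.21 ± 0.53 (SE; adjusted p 0.591 in limma), and Ccnd1 one of -0.01 ± 0.13 (SE; adjusted p 0.986 in limma). Without XX wild type replicate 2, limma called 40 genes for the difference.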

How the data were processed

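Gonads were sequenced as poly(A)-selected, 100-base paired libraries, per the labels' protocols. Per the submitters' processing notes the tools were DESeq2 2.11.40.8, featureCounts 2.0.8, STAR 2.7.11 and cutadapt 4.9, on GRCm38 (mm10). The sources used here do not give the counting strand or annotation release. The authors deposited a signal of normalized counts per gene, each column a multiple of its own step, in separate tables for XX and XY. The authors' deposited tables also give log2 fold changes and p-values from their DESeq2 comparisons within each sex. Log2(normalized count + 1), which understates changes of low genes, was fitted with limma 3.58.1 (R 4.3.3, variance trend) on table and genotype, with Benjamini-Hochberg adjustment over all 16567 genes at 0.05 (5 residual and 3.74 prior degrees of freedom). The script was tested on simulated data.

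In every library 100% of nonzero values were whole multiples of 1 step (0.970 to 1.03), read as 1 count for depths only. A planned edgeR test on such counts was not run, because a screen for recovered reads could not tell steps close to 1 from rounded values. Replicate pools differed by more than sampling noise (median chi-square per gene 1.27 to 4.21 at 1 degree of freedom).

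Members, lists and rules were chosen with earlier results of these data known. The rule named Kdm6b and Kdm6bos, then up to 12 genes in each direction reaching a mean of 50 in some group and with separated groups in both sexes, called genes first and then by smallest p, without predicted genes, then Sry, Sox9, Wnt4, Fst, Kdm6a and Uty, and for each list up to 3 members with the smallest p. Some members are not reported here. Gene classes came from GENCODE M21 and microRNA sequences from RefSeq.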

Additional observations from a re-analysis of the deposited data

How the results depend on the processing

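Limma called 2 genes for the average effect. It called 1 with a mean of at least 50 in both tables, where Kdm6bos was not tested, 4 with the mean of the within-table effects (Des and Scrn1 besides Kdm6b and Kdm6bos), 6 with array weights (Scrn1, Ccnd1, Mir17hg and Rn18s-rs5 besides these), and 0 to 3 when 1 library was left out. Pseudocounts of 0.5 and 5, no filter, centring and quantile normalization gave 2, as did the fit with no variance trend, in which Tmprss13 passed and Kdm6b did not. Genes at an unadjusted p under 0.05 numbered 490 to 1365 higher and 514 to 968 lower with 1 library left out, and 1369 were lower with no filter. Genes past the unadjusted threshold in both sexes numbered 80 to 305 with the same sign and 13 to 84 with opposite signs with 1 library left out, and were nearest to each other without XY_WT replicate 1 (81 and 76). By the authors' adjusted p they were 11 and 3, at an unadjusted p under 0.01 they were 19 and 8, and beyond a log2 fold change of 0.5 they were 448 and 249. For the difference between the sexes the range with 1 library left out was 0 to 40 genes called and 665 to 3491 at an unadjusted p under 0.05. The cause of these shifts was not tested.

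With a replicate block limma called 0 genes (adjusted p 0.0711 for Kdm6b and 0.0611 for Kdm6bos). Same-numbered libraries deviated with a correlation of -0.06 in XX and 0.24 in XY. These values do not settle whether the numbers pair the samples.

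Among the 65 single genes followed through the alternatives, 3 near 0 turned. Some genes named in the text, such as Ifitm1, Cacna1g, Serpinb6a, Mir322 and Mir503, were not followed. Sox9 was -0.00499 with array weights and ran from -0.065 to 0.40 with 1 library left out (-0.02 without XY_null replicate 1). Wnt4 ran from -0.059 to 0.39 (-0.02 without XX_WT replicate 2 and -0.03 without XX_null replicate 2). Kdm6a ran from -0.079 to 0.017 (0.0056 without XY_WT replicate 2 and 0.0013 without XY_null replicate 2). The edgeR alternative was not run.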
